A study of Mus musculus with 38 samples.

Results

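Nerve and Schwann cell genes were followed here in small lung vessels of mice through chronic hypoxia and its reversal. The set holds 7 of the 19087 genes named on the arrays: Scn7a, Gap43, Bex1, Sox10, S100b, Ngfr and Cdh19. Members were taken by the platform's gene symbol, which gave 18 features, 11 of them for Ngfr, 2 for Sox10 and 1 for each of the others. They were chosen by measured log ratios of hypoxia over normoxia, since the set was proposed with results of the comparison of hypoxia with normoxia in view, so that comparison is given below as a description of the members, with no test.

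C57BL/6J mice of 12 to 18 weeks breathed either hypoxic gas (FiO2 0.10) or normal air (FiO2 0.21) for 21 days. Part of the hypoxic animals then returned to normal air. With each array channel counted as 1 animal, the groups held 11, 12, 12 and 10 animals at days 1, 3, 7 and 14 of the return. On the same count, 23 animals stood at the end of hypoxia and 8 in normoxia. The labels name no transgene or mutation for any of them. Vessels with an outer diameter of 50 to 100 µm were cut by laser from 10 µm sections, and RNA of 2 animals, 1 in Cy3 and 1 in Cy5, was hybridised to each of 38 arrays. Such a cut holds the vessel wall with any nerve fibre and neighbouring tissue in its path.

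The small vessels of the lung are reached by autonomic and sensory nerve fibres, whose axons are wrapped by Schwann cells. Schwann cells are the glia of peripheral nerves, and their lineage is set by Sox10, a transcription factor that activates many other glial genes. S100b is a calcium-binding protein of glia, Ngfr a receptor for neurotrophins carried by Schwann cells and some neurons, and Cdh19 a cadherin of the Schwann cell lineage. Scn7a encodes an atypical sodium channel that responds to the sodium level outside the cell, known from Schwann cells, sensory neurons and other cells. Gap43 is a membrane protein of growth cones and regenerating axons that immature Schwann cells also make. Bex1 is a small adaptor protein that binds the neurotrophin receptor Ngfr in rat cells.

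Promoters of Scn7a and Bex1, which were higher in hypoxia, and of Ngfr, which was not, are shown to compare genes of the set that moved differently. They come from RefSeq on build GRCm38.p6 and run from 250 bases before to 50 bases after the annotated start, 5′ to 3′ along the gene. Capitals mark the core of a hypoxia response element, ACGTG, searched on both strands, on the other of which it reads CACGT. Coordinates are chr2:66784861-66785160 (minus strand) for Scn7a, chrX:136215464-136215763 (minus strand) for Bex1 and chr11:95587649-95587948 (minus strand) for Ngfr.
Scn7a: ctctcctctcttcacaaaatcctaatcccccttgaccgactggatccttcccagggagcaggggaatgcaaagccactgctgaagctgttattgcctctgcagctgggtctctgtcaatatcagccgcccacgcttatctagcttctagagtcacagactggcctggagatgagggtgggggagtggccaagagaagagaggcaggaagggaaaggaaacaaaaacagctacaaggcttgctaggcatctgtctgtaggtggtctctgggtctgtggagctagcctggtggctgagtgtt
Bex1: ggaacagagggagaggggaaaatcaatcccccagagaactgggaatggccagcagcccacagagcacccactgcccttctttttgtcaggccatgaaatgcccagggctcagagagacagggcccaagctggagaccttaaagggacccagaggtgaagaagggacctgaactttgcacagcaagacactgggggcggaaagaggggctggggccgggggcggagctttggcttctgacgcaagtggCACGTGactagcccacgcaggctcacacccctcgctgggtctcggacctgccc
Ngfr: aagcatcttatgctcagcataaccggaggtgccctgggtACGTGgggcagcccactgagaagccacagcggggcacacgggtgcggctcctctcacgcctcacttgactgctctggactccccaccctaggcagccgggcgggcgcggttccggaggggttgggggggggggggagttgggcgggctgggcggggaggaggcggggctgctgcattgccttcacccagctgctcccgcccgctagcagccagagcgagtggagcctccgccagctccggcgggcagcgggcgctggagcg
The Bex1 promoter held 2 matches, 1 on each strand, which overlap as a palindrome beginning at position -3 relative to the start. The Ngfr promoter held 1 match, at position -211. No match stood in the windows of Scn7a or of S100b (chr10:76253586-76253885, plus strand). Of 32851 promoters in the table, 19.6% held ACGTG on either strand. The core bound by Sox proteins, ACAAAG, also searched on both strands, was in 18.7% of all promoters and in 0 of these 4. A match is only a run of letters, and its absence says nothing of a factor. Gap43, Sox10 and Cdh19 are named only.

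Each deposited value is a log ratio between the dyes of an array, which gives a difference between animals and no level. The order Cy5 over Cy3 is likely from the convention of the software and is not settled, and every direction below rests on it. The log base is not stated either: values were read as log10 because they are small, with an array SD of 0.0742 to 0.192, and the fold is given for both bases where it matters. Log ratios between hypoxia and normoxia correlated at -0.00674 to 0.216 between arrays of one dye order (12 pairs) and at 0.0159 to 0.430 between arrays of opposite order after turning, so no pair of arrays opposed the rest strongly. Spot brightness was not used here, so whether a member's probe stood above background was not tested. An entry is 1 gene or 1 unnamed feature, and 30653 entries were fitted together.

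Hypoxia set Scn7a, Gap43 and Bex1 apart from the glial genes. Against normoxia their log ratios were 0.270, 0.269 and 0.204. Those of Sox10, S100b, Ngfr and Cdh19 were 0.0123, -0.0417, -0.0517 and 0.0211. Of the 7 members, 3 passed an adjusted p of 0.05 in limma, where 3.6% of all entries did, and because this comparison chose the set, that count supports nothing. In dissected tissue, more cells of a type and more RNA per cell cannot be told apart.

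On the 8 arrays that paired a hypoxic with a normoxic animal, Scn7a had a log ratio of 0.111 at the lowest, 0.274 at the median and 0.437 at the highest. It was higher in the hypoxic animal on 8 of 8 arrays, under both dye orders. The fitted log ratio was 0.270 ± 0.0506 (SE, 38 arrays; 95% interval 0.168 to 0.373), or 1.86-fold on a base of 10 and 1.21-fold on a base of 2. Gap43 ran from 0.120 through a median of 0.234 to 0.489 on these arrays. It was likewise higher on 8 of 8, with a fitted 0.269 ± 0.0680 (1.86-fold or 1.21-fold), and the widest range of the 7 genes. Bex1 lay between 0.0516 and 0.333 with a median of 0.262. All 8 arrays were again on the higher side, but 3 of them stayed below 0.1 and the other 5 were above 0.25, so its fitted 0.204 ± 0.0435 (1.60-fold or 1.15-fold) averages unlike arrays. Among all entries, 4.02% had 1 sign on all 8 arrays.

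Sox10 showed log ratios from -0.0223 to 0.0574 with a median of 0.00762, higher in the hypoxic animal on 5 of 8 arrays. Its fitted 0.0123 ± 0.0208 has a 95% interval of -0.0299 to 0.0545, and the log ratio measured for Scn7a lies outside it. That interval bears on the mean of 2 features, and whether either stood above background was not tested. It therefore says nothing of a change that the features could not read. Cdh19 ranged from -0.0228 to 0.0482 around a median of 0.0283, with 6 of 8 arrays on the higher side and a fitted 0.0211 ± 0.0162. These are the values of 2 genes whose arrays fall on both sides of 0.

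S100b was lower in the hypoxic animal on 7 of 8 arrays, with values from -0.0918 through a median of -0.0467 to 0.0294 and a fitted -0.0417 ± 0.0175. Ngfr ran from -0.211 through -0.0535 to 0.0998, lower on 6 of 8 arrays, with a fitted -0.0517 ± 0.0209. Both genes had arrays on either side of 0.

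**Figure D1:**
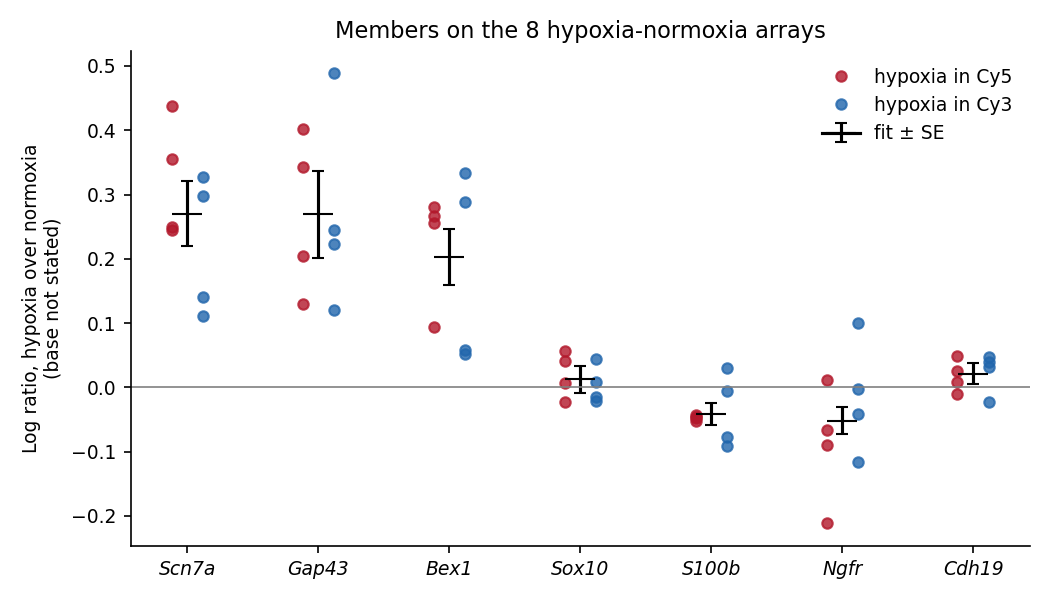
Log ratio of hypoxia over normoxia (vertical axis, base not stated) for the 7 genes on the 8 arrays that pair the conditions, coloured by the dye of the hypoxic animal; black bars are the fitted value ± SE from 38 arrays. Every point of Scn7a, Gap43 and Bex1 lies above 0, and points of each of the other 4 genes fall on both sides of it.

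The 11 Ngfr features were set against each other, which bears on the features of that gene alone. Of these, 10 varied alike over the 38 arrays, with a correlation between features of 0.724 to 0.939 (median 0.854) and a median SD of 0.0215 within an array. Their fitted hypoxia over normoxia values lay between -0.0641 and -0.0413. The other feature followed none of them, at -0.0697 to 0.185, and had a fitted value of -0.0310 ± 0.0162. The 2 Sox10 features correlated at only 0.102, with fitted values of 0.00349 and 0.0211, so the mean used for Sox10 joins spots that do not track each other.

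The SD over 38 arrays includes the arrays that chose the members and is a description. It was 0.264 for Gap43, 0.193 for Scn7a and 0.155 for Bex1, at the percentiles 99.7, 97.0 and 90.1 of all entries. For Ngfr, Sox10, S100b and Cdh19 it was 0.0616, 0.0599, 0.0508 and 0.0432, at the percentiles 27.6, 25.8, 17.5 and 11.6. After dye and condition were removed, the residual SD was 0.2004 for Gap43, 0.148 for Scn7a and 0.127 for Bex1, at the percentiles 97.8, 89.0 and 81.3 of all entries, and between 0.0430 and 0.0580 for the other 4 genes, at the percentiles 12.1 to 25.3.

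Of the lists of nerve genes, those of Schwann cell identity, myelin, axons and transmitters had negative medians in hypoxia over normoxia. All lists were chosen with earlier results of these data known. Their counts in this comparison, here and below, are therefore descriptions, also where the share of all entries stands beside them. Of 17 measured Schwann cell identity genes, which include Sox10, S100b, Ngfr and Cdh19, 6 had a positive log ratio and 0 passed the test upwards, against a background of 1.35% of entries. The median was -0.0156, against -0.00397 over all entries. Foxd3, a transcription factor of the neural crest, fell at -0.101 ± 0.0247 (limma adjusted p = 0.0157), and so did Kcna1, a potassium channel of axons, at -0.0746 ± 0.0206 (limma adjusted p = 0.0334), with 2.25% of entries lower in all. Erbb3, the neuregulin receptor of Schwann cells, was at 0.0466 ± 0.0257 (limma adjusted p = 0.369).

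Myelin genes gave the same picture: 5 of 15 were positive, the median was -0.0164, and the 1 that passed was lower. That gene was Dhh, the hedgehog ligand Schwann cells send to the perineurium, at -0.282 ± 0.0601 (limma adjusted p = 0.00594). Of 19 axon and neuron genes 6 were positive, and beside Gap43 none passed. An unadjusted p under 0.05 in limma was met by 7 of the list, Gap43 included. Among all 30653 entries, 5137 met it in this comparison. Sncg, a synuclein of peripheral neurons, was at 0.143 ± 0.0426 (limma adjusted p = 0.0508), while Tubb3, the tubulin of neurons, was at -0.0877 ± 0.0269 (limma adjusted p = 0.0604). None of the 17 transmitter and sensory genes passed, 1 had an unadjusted p under 0.05 in limma, and 4 were positive. Vip, a vasodilator peptide, was at -0.0359 ± 0.0153 (limma adjusted p = 0.209).

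As means over each list without the members, Schwann identity ran from -0.0696 to 0.00316 on the 8 arrays, and axon and neuron genes from -0.0463 to 0.00132. Each was lower in the hypoxic animal on 7 of 8 arrays, and the myelin list on 6 and the transmitter and sensory list on 8 of 8. Other lists tied to nerve lay on the higher side: neurotrophins and their receptors on 8 of 8 arrays, at 0.000967 to 0.0660, endoneurial and perineurial cells on 7 of 8, and axon guidance on 6 of 8. Scn7a, Gap43 and Bex1, higher on 8 of 8 arrays, thus had the opposite sign to the Schwann cell and axon lists that the label refers to, and they are called by name from here.

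Few close relatives of the 3 raised genes passed the test. Beside Scn7a, 0 of the other 10 sodium channel genes did, at an adjusted or an unadjusted p of 0.05 in limma. Of all 30653 entries, 5137 met the unadjusted one. Scn9a, the channel of pain fibres, was at 0.0191 ± 0.0117 (limma adjusted p = 0.438). Of 9 Bex and Tceal genes, Bex2, whose sequence is close to that of Bex1 so that their probes could share signal, rose at 0.171 ± 0.0462 (limma adjusted p = 0.0295) beside it. Tceal1 was at -0.128 ± 0.0801 (limma adjusted p = 0.448). In the S100 family 3 of 14 genes were positive, with a median of -0.0593, and S100b was nearer to 0 than that median.

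Of 15 neurotrophin and receptor genes, Ngfr among them, 3 rose, where 1.35% of all entries did. A difference between these and Ngfr was not tested. Sort1, a sorting receptor that pairs with Ngfr, was at 0.163 ± 0.0333 (limma adjusted p = 0.00429). Ntrk3, the receptor of neurotrophin-3, was at 0.226 ± 0.0610 (limma adjusted p = 0.0295), and Gfra2, a receptor of neurturin, at 0.167 ± 0.0476 (limma adjusted p = 0.0421). The ligand Bdnf was at -0.0525 ± 0.0274 (limma adjusted p = 0.333). Among 19 axon guidance genes 3 rose: Nrp1, a semaphorin and VEGF receptor also found on endothelium, at 0.115 ± 0.0270 (limma adjusted p = 0.0113), and the ligands Sema3c at 0.167 ± 0.0470 (limma adjusted p = 0.0381) and Sema3a at 0.0866 ± 0.0253 (limma adjusted p = 0.0471).

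**Figure D2:**
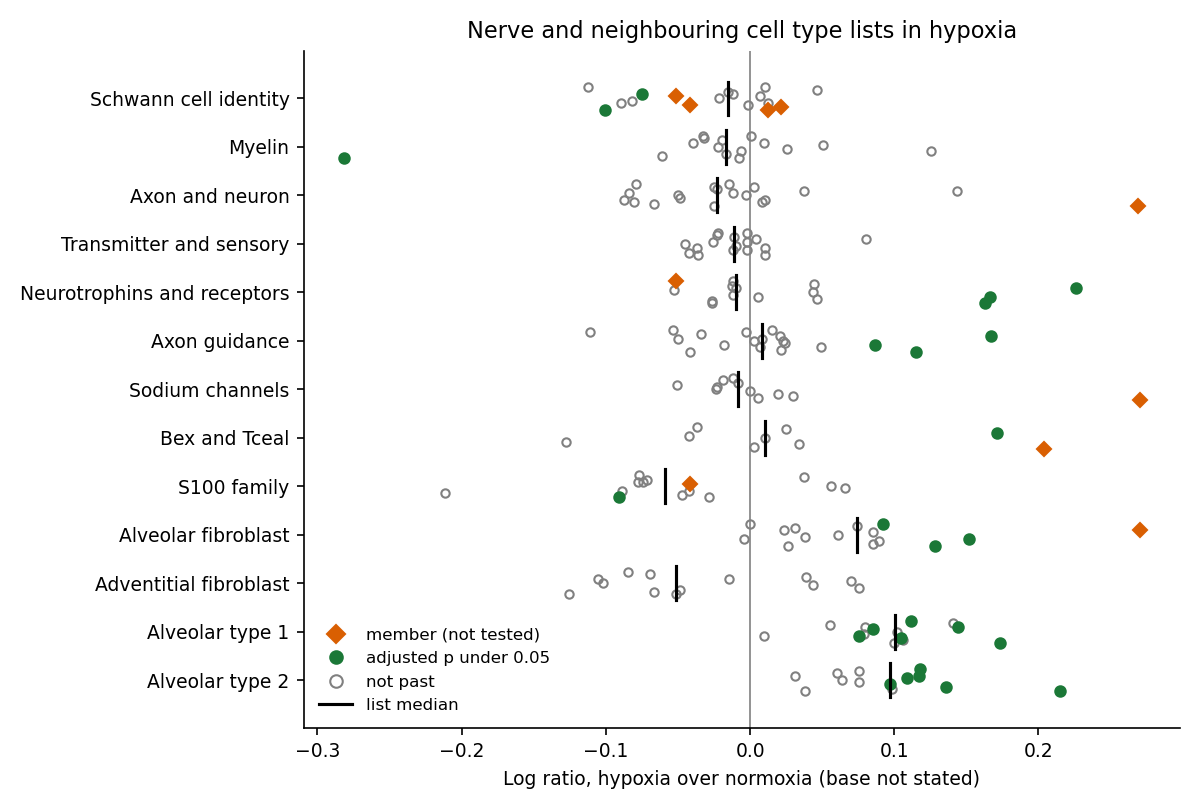
Fitted log ratio of hypoxia over normoxia (horizontal axis, base not stated) of each measured gene in 13 lists; diamonds are members, filled circles passed an adjusted p of 0.05, open circles did not, and black lines are list medians. Scn7a and Gap43 are the rightmost genes of the sodium channel list and the axon and neuron list, Bex1 at 0.204 lies beside Bex2 at 0.171, and the alveolar lists lie to the right of 0 as a whole.

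Genes of the gas exchange tissue were also higher in hypoxia, in the comparison that chose the set. All 14 alveolar type 1 and all 13 alveolar type 2 genes were positive in hypoxia over normoxia, with 6 in each list past the test and medians of 0.101 and 0.0967. Without Scn7a, which is also a marker of alveolar fibroblasts, the mean of that fibroblast list was higher on 8 of 8 arrays, at 0.0272 to 0.101. The mean of both alveolar epithelial lists was higher on 8 of 8 as well, at 0.0326 to 0.152. Smooth muscle genes were lower, with 5 of 12 past the test and a median of -0.0945. With the alveolar mean as a covariate, Scn7a was at 0.231 ± 0.0826, Gap43 at 0.151 ± 0.109 and Bex1 at 0.265 ± 0.0702. Without it their SEs were 0.0506, 0.0680 and 0.0435, and the covariate itself differed between hypoxia and normoxia on 8 of 8 arrays. With the covariate 0 of the 7 genes passed, but the share of all entries passing in that fit was not counted, so the count says little. The part of these markers in the values of Scn7a, Gap43 and Bex1 was not tested beyond this covariate.

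After the return to normal air, Gap43 had the lowest values of the set relative to hypoxia. No normoxic animal shared an array with a returned animal, so the days can be tested against hypoxia. The arrays that chose the members enter that fit only through the dye term and the spread. This assumes that no hypoxic animal was used on more than 1 array. Of 7 members, 0 passed an adjusted p of 0.05 in limma at day 1, 3, 7 or 14. The background was equally small, at 0%, 0.013%, 0.0163% and 0% of entries, and an unadjusted p under 0.05 was met by 3.97%, 9.22%, 6.48% and 4.03% of entries. Among the members Gap43 met it at days 3 and 7, and none did at days 1 and 14.

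At day 1 the 4 arrays with hypoxia gave Gap43 log ratios of -0.341, -0.161, 0.00225 and 0.121. They fall on both sides of 0, and the fitted value was -0.0925 ± 0.0680 (limma adjusted p = 1.00). At day 3 the arrays gave 0.156, -0.254, -0.113 and -0.408, 3 of 4 lower. The fit, which also uses arrays between days, gave -0.255 ± 0.0662 (95% interval -0.389 to -0.120; limma unadjusted p = 0.000483, adjusted p = 0.206). At day 7 all 4 arrays were lower, at -0.0334, -0.479, -0.526 and -0.416, and 12.4% of entries had 1 sign on all 4. The fitted value was -0.228 ± 0.0668 (limma unadjusted p = 0.00164, adjusted p = 0.498). At day 14 the 3 arrays gave -0.0773, -0.347 and 0.134, and the fit -0.142 ± 0.0728 (limma adjusted p = 1.00). Gap43 was thus on the lower side at every day, by amounts near its own rise in hypoxia at days 3 and 7, without passing the test.

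Scn7a and Bex1 had fitted values closer to hypoxia than to normoxia at each day. For Scn7a the fitted log ratios over hypoxia were 0.0273 ± 0.0506, 0.0227 ± 0.0492, -0.0700 ± 0.0497 and -0.0574 ± 0.0542 at days 1, 3, 7 and 14. At day 7 all 4 of its arrays with hypoxia were lower, at -0.0564, -0.247, -0.0334 and -0.319, although the interval of the fitted value, -0.171 to 0.0309, holds 0. The mean of these arrays, -0.164, lay farther from hypoxia than the fitted value, which also uses arrays between days. Bex1 had fitted values of 0.0133 ± 0.0435, -0.0293 ± 0.0423, -0.0411 ± 0.0427 and 0.0205 ± 0.0466. Its 4 arrays at day 3 spread from -0.148 to 0.238. A difference in return between Gap43 and the other raised genes was not tested.

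With the features of a gene averaged, the fitted values of the glial genes stayed within 0.04 of hypoxia at every day. Single features of Sox10 and Ngfr went beyond this, as far as -0.0533 for Sox10 at day 3. Sox10 was at 0.000101, -0.0316, 0.0246 and 0.00763, and S100b at 0.00314, 0.0127, 0.0285 and -0.00649, at days 1, 3, 7 and 14. S100b was higher than hypoxia on 4 of 4 arrays at day 7, at 0.0303 to 0.0918, with a fitted 95% interval of -0.00630 to 0.0633 (limma adjusted p = 0.825). Ngfr was at -0.0296, -0.0182, 0.00935 and -0.00221 and Cdh19 at 0.0125, 0.00821, -0.0150 and 0.00733 on the same days. SEs of these 4 genes lay between 0.0157 and 0.0223.

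**Figure D3:**
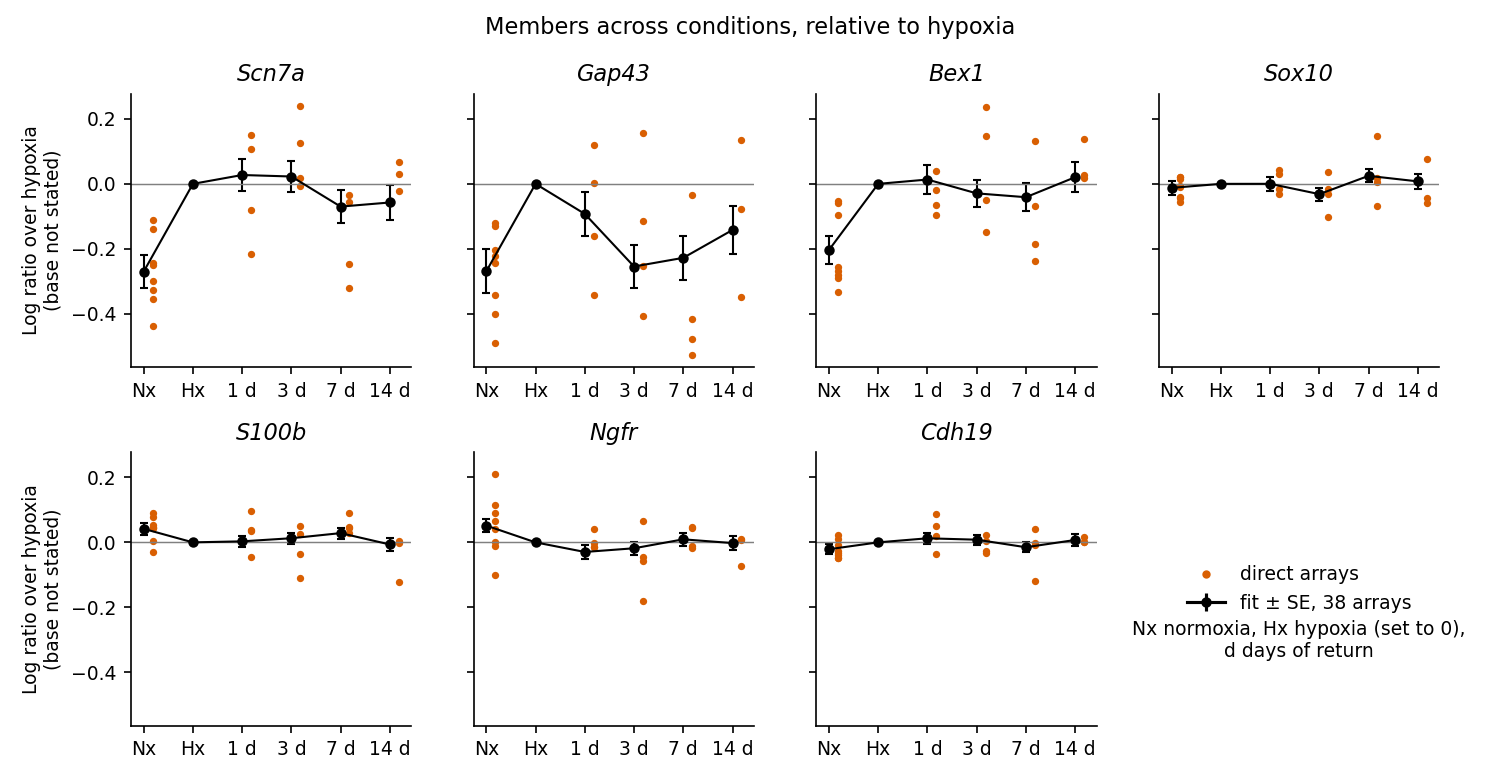
Log ratio relative to hypoxia (vertical axis, base not stated) of each gene in normoxia (Nx), hypoxia (Hx, set to 0) and at days 1, 3, 7 and 14 of the return; black points are fitted values ± SE from 38 arrays and orange points are arrays that pair the condition with hypoxia. Gap43 is at -0.255 at day 3 and -0.228 at day 7, near its normoxic value of about the same depth. The fitted values of Scn7a and Bex1 remain closer to 0 than to their normoxic values, though all orange points of Scn7a at day 7 lie below 0.

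Between days the members again gave 0 of 7 past the test in each step, where 0% of entries passed for day 3 over day 1, 0.00979% for day 7 over day 3, 0% for day 14 over day 7 and 0% for day 14 over day 1. An unadjusted p under 0.05 was met by Gap43 in the first of these steps and Sox10 in the second, where 4.63% and 10.2% of entries met it, and by no member in the last steps, where 3.66% and 2.79% did. Gap43 was lower at day 3 than at day 1 on 4 of 4 arrays, at -0.186, -0.156, -0.145 and -0.370. The fitted step was -0.162 ± 0.0713 (limma unadjusted p = 0.0292, adjusted p = 1.00), and 15.1% of entries had 1 sign on all 4. Sox10 was higher at day 7 than at day 3 on 3 of 4 arrays, at -0.0774, 0.148, 0.106 and 0.130. The fitted step was 0.0563 ± 0.0216 (limma unadjusted p = 0.0136, adjusted p = 0.375). Its 2 features differed here. Over hypoxia, 1 was at -0.0533 at day 3 and 0.0460 at day 7, and the other at -0.00997 and 0.00327. Ngfr was at 0.0276 ± 0.0217 for day 7 over day 3.

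Set against normoxia, the days hold the comparison that chose the genes and are given as a description. Scn7a stayed above normoxia throughout, at 0.298 ± 0.0716, 0.293 ± 0.0706, 0.2004 ± 0.0710 and 0.213 ± 0.0742 at days 1, 3, 7 and 14. Bex1 did so too, at 0.217, 0.174, 0.162 and 0.224, with SEs of 0.0607 to 0.0638. Gap43 was at 0.177 ± 0.0962, 0.0147 ± 0.0949, 0.0414 ± 0.0954 and 0.127 ± 0.0997, nearest to normoxia at days 3 and 7. Ngfr was lower at each day, at -0.0812, -0.0699, -0.0423 and -0.0539. The percentage of entries past the test was 0.111, 0.783, 0.0228 and 0.0261 at these days. Among the members Scn7a alone passed, at day 3, and because these values hold the comparison that chose the set, that supports nothing.

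Across the 30 arrays without a normoxic animal, which the choice of the set did not use, the 7 genes formed no common pattern. Of 21 pairs, 0 passed a permutation test after Benjamini-Hochberg adjustment, and 3 had an unadjusted p under 0.05. Sox10 and Ngfr varied in the same direction, with r = 0.499 and rho = 0.496 (permutation adjusted p = 0.0831 and 0.0808), and r = 0.377 without the 2 arrays farthest from the median. Bex1 and S100b varied in opposite directions, with r = -0.465 and rho = -0.481 (permutation adjusted p = 0.0831 and 0.0808), and r = -0.479 without the 2 farthest arrays. Sox10 and Cdh19 also opposed each other, with r = -0.456 and rho = -0.416 (permutation adjusted p = 0.0831 and 0.160), and r = -0.382 without the 2 farthest. Among the raised genes, Scn7a gave r = 0.353 with Gap43 and 0.352 with Bex1 (permutation adjusted p = 0.235 for each), and Gap43 gave 0.103 with Bex1.

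**Figure D4:**
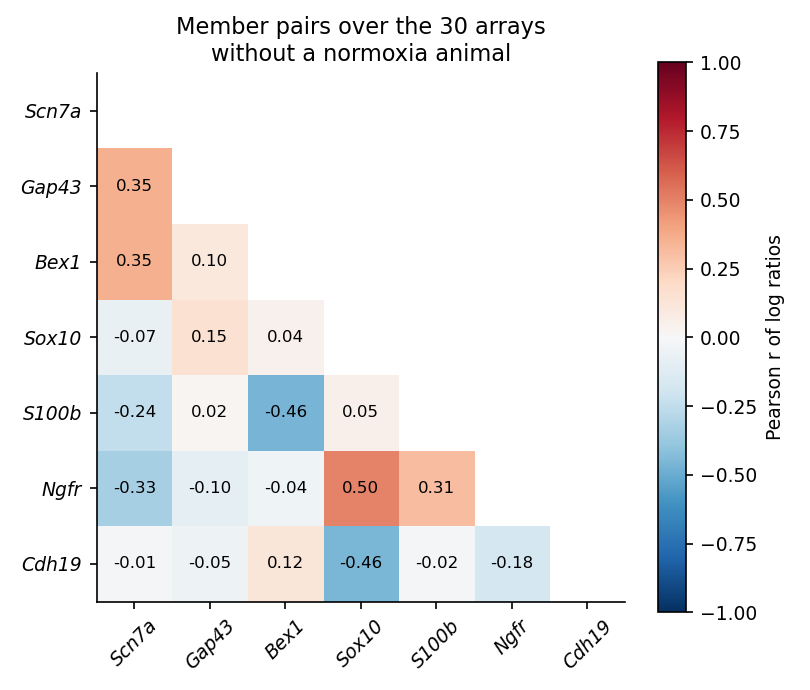
Pearson correlation of log ratios between the 7 genes over the 30 arrays without a normoxic animal, on a colour scale from -1 to 1. Sox10 with Ngfr reaches 0.50, the lowest values are -0.46 for Bex1 with S100b and for Sox10 with Cdh19, and no pair passed the adjusted test.

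Set against the mean of each of 21 gene lists on these arrays, 3 of 147 relations passed by r and 1 by rho. Gap43 followed the alveolar type 1 list, with r = 0.591 and rho = 0.647 (permutation adjusted p = 0.0446 and 0.0279), and r = 0.720 without the 2 farthest arrays. It did not follow the axon and neuron list, at r = 0.0789 (permutation adjusted p = 0.848). Scn7a and Bex1 gave r = 0.244 and 0.112 with the alveolar type 1 list, and neither passed (permutation adjusted p = 0.637 and 0.804). After dye and condition were removed, the relation of Gap43 with alveolar type 1 genes was r = 0.254 over 38 arrays and did not pass (permutation adjusted p = 0.692). A difference between this r and that over 30 arrays was not tested. Ngfr followed the other Schwann identity genes, with r = 0.570 and rho = 0.541 (permutation adjusted p = 0.0446 and 0.0703), r = 0.529 without the 2 farthest, and 0.369 within conditions (permutation adjusted p = 0.359). That list holds Sox10, S100b and Cdh19. Ngfr also followed the transmitter and sensory list, at r = 0.579 and 0.432 within conditions (permutation adjusted p = 0.0446 and 0.185). Single arrays decided these calls: leaving out 1 array at a time, Gap43 with alveolar type 1 passed in 10 of 30 runs, Ngfr with Schwann identity in 9 and Ngfr with the transmitter list in 11. Scn7a ran against Schwann identity, with r = -0.460 (permutation adjusted p = 0.217).

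**Figure D5:**
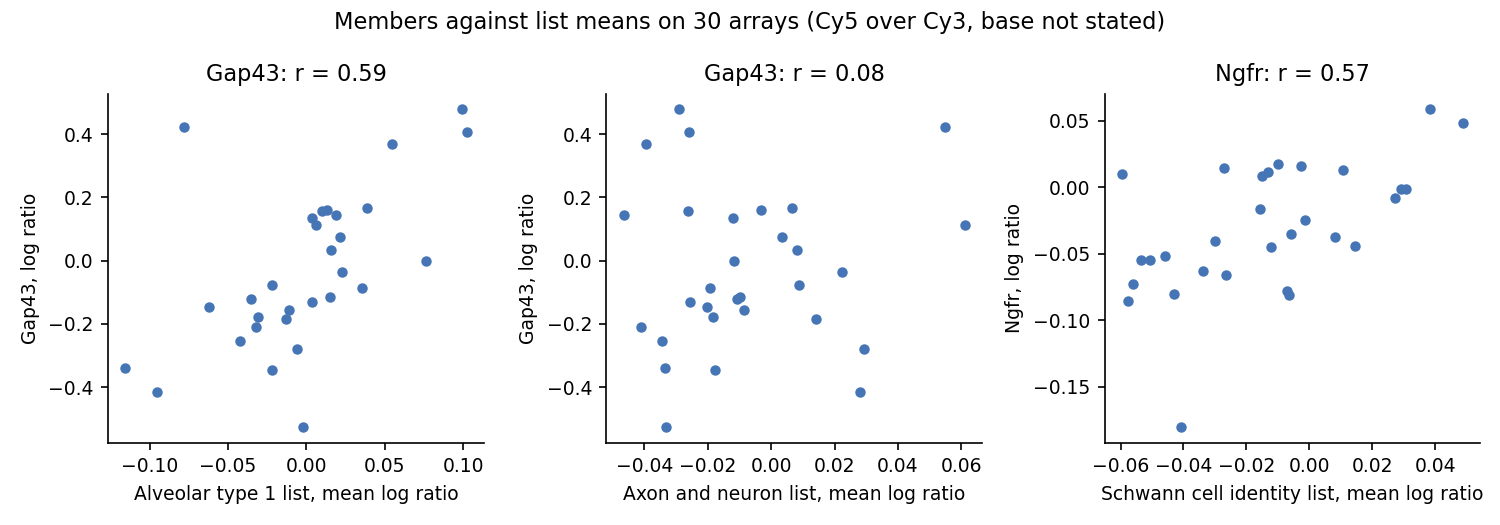
Log ratio of Gap43 or Ngfr (vertical axes) against the mean log ratio of a gene list (horizontal axes) on the 30 arrays without a normoxic animal, both Cy5 over Cy3 with base not stated; each point is 1 array. Gap43 climbs with the alveolar type 1 list (r = 0.59) but not with the axon and neuron list (r = 0.08), and Ngfr climbs with Schwann identity (r = 0.57).

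The genes whose log ratios were most like each member over the 38 arrays were read as a description, which includes the arrays that chose the set. For Scn7a they were Fat4, Sptbn1 and Asah1, at r = 0.725, 0.703 and 0.700. Gap43 was closest to Mfap4, Mtss2 and Dpysl2, at 0.687, 0.669 and 0.669, and Bex1 to Ppp1r9a, Chic1 and Snhg11, at 0.683, 0.680 and 0.658. Mfap4, a protein of elastic fibres, is in the alveolar fibroblast list and rose in hypoxia at 0.151 (limma adjusted p = 0.00223). Sox10 was nearest to Epha6, Dusp8 and Slc1a2, at 0.719, 0.713 and 0.668, and S100b to Optc, Snai3 and Ankrd52, at 0.668, 0.616 and 0.610. For Ngfr they were Csmd3, Dntt and Olfr713, at 0.789, 0.726 and 0.687, and for Cdh19 Mtmr2, Cds1 and Prrg4, at 0.630, 0.586 and 0.558. No gene appears for more than 1 member. Only the nearest few genes were named for each, and the overlap that other genes would give was not counted. The lack of overlap therefore says nothing of whether the members vary alike.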

How the data were processed

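RNA of dissected vessels was hybridised to 38 Agilent arrays of 2 colours. Each of the 76 channels was counted as 1 animal, which assumes that no animal was used on more than 1 array. The deposited log10 or other-base log ratios, 1 per feature, were made by the authors with limma, per the submitters' processing notes. Their background correction, normalization and log base were not given in the sources used here. Incomplete features, 2 of 45220, were dropped. Features of 1 symbol were averaged, and those without a single symbol stayed as entries. The model (limma 3.58.1, R 4.3.3) took all 38 arrays, with a dye term and 5 condition terms against hypoxia (32 residual degrees of freedom), two-sided, with Benjamini-Hochberg adjustment over 30653 entries at 0.05. The fit was tested on simulated data. Correlations used 100000 permutations (two-sided). Members and 21 gene lists (268 of 292 genes measured) were chosen with earlier results of these data known, and up to 4 genes of smallest p per list were named. For likeness, 3 genes with 1 symbol and the highest r were named per member. Residuals of arrays from different groups correlated at a median of -0.0160 for the same replicate number and -0.0244 for different numbers. Shared animals could give either sign, so these medians cannot show whether replicate numbers mark shared animals. The alternatives were other dye, scaling, centring, feature, filter, variance, weighting, block and covariate settings, the direct arrays alone, and leaving out each array. The number of arrays limits the precision. Scanner files, slides and scan dates were not used here, so batches were not tested.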

Additional observations from a re-analysis of the deposited data

Results flagged for a closer look

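In 49 groups of 4 to 8 arrays, the member's lowest or highest value stood apart from the others in 2, which is about the number that chance gives, near 1 in 20. Both were arrays that pair day 3 with day 1. For Gap43, the array with day 3 in Cy3 (replicate 2) gave a log ratio of -0.387 after the dye effect was removed, where the others lay between -0.169 and -0.139. For Ngfr, the array with day 3 in Cy5 (replicate 1) gave -0.0205, where the others lay between 0.0462 and 0.0512.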

How the results depend on the processing

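Of 4470 recomputed values of the members, 4447 kept their side of the threshold, 21 lost it, 2 gained it and 0 reversed. Most of these values did not pass in the main fit, so that keeping their side says little of stability. The 21 losses fell among the few that did pass. Another 101 values, which passed in neither fit, changed sign. The number of members past the test in hypoxia over normoxia was 0 with the alveolar covariate and 1 (Scn7a) on the direct arrays alone, against 3, and 2 to 3 when 1 array was left out: Gap43 was lost without the hypoxia-normoxia array of replicate 1 with hypoxia in Cy5 (0.247) or of replicate 4 with hypoxia in Cy3 (0.239). Day 3 over normoxia had 0, against 1, with scaled arrays, with array weights and with the alveolar covariate, and 0 to 1 with 1 array left out, as did day 1 over normoxia, against 0. Correlated pairs of members numbered 3 on all 38 arrays, against 0, and 0 to 1 with 1 array left out. Relations with lists numbered 1 by rho, 0 with the feature of largest SD, 14 on all 38 arrays and 1 on residuals, against 3, and 0 to 6 with 1 array left out; 19 of 30 arrays left out gave 0. For these, the cause was not tested, except that the direct arrays alone hold fewer arrays. The share of all entries past the test in each changed setting was not counted. With the replicate block the count in hypoxia over normoxia was 3, and no call on the members changed. The fit to named genes only was added after seeing the data. The filter on SD removed Sox10, S100b, Ngfr and Cdh19, and day 14 over hypoxia on direct arrays alone had 1 dye order, so no dye term. Brightness was not used here, so limits from dim probes are unknown.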

Other observations

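The marker lists of the other cell types a vessel cut can hold gave the following counts in hypoxia over normoxia. All 10 adipocyte genes were negative, 2 of them past the test, with a median of -0.0636. Among 11 cardiac muscle genes 1 fell and 2 were positive, and among 13 adventitial fibroblast genes 0 passed and 9 were negative, with a median of -0.0516. Pericyte genes had 1 of 11 past the test upwards, and endothelial genes 2 of 13 upwards and 1 downwards. None of 10 endoneurial and perineurial, 7 melanocyte and 11 neuroendocrine genes passed. An unadjusted p under 0.05 in limma was met by 3, 1 and 1 of them, where 5137 of 30653 entries met it. The melanocyte list, which shares its neural crest origin with Sox10, ran from -0.0806 to 0.0904 as a mean over the 8 arrays, on both sides of 0. After dye and condition were removed, Sox10 ran against the adventitial fibroblast list over 38 arrays, with r = -0.592 (permutation adjusted p = 0.00882). Few arrays carried it: over the 30 arrays without a normoxic animal, r was -0.562 and rho -0.268 (permutation adjusted p = 0.0709 and 0.627), and r was -0.123 without the 2 farthest arrays. Leaving out 1 array at a time, it passed in 3 of 30 runs.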
